A study of Rattus norvegicus with 16 samples.

Results

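The annexins described here are 9 genes, Anxa1 to Anxa8 and Anxa11, taken by symbol from a table of 17147 genes. Messenger RNA of the supraspinatus, a rotator cuff muscle of the shoulder, was sequenced in Sprague Dawley rats. The 16 libraries form 4 groups of 4: unoperated muscle (0 days), and muscle at 10, 30 and 60 days after injury. Every injured muscle had its tendon torn through its full thickness, in both shoulders, and also lost its nerve supply by a suprascapular neurectomy. The controls had no operation, so the tear, the loss of the nerve and the surgery itself cannot be told apart. The labels give neither age nor sex, nor whether 2 libraries came from the same rat. Standard errors and tests therefore measure the spread between libraries.

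Annexins are soluble proteins that bind membranes rich in acidic phospholipids when calcium rises. They gather at torn plasma membranes, where they help to form a patch, and several members also act outside the cell, in the ending of inflammation, in clotting and in plasmin formation. In skeletal muscle they are best known for sarcolemma repair beside dysferlin. Several pair with small calcium-binding S100 proteins.

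The family was chosen by symbol with earlier results of these libraries known, among them the CPM of Anxa8 at 60 and 0 days, so its members count as selected on the measured differences between the groups. Values of the 9 members are therefore a description, without p-values, and how often members were called supports nothing. Levels are CPM, the fragments of a gene relative to the library total scaled with TMM factors, which set the bulk of genes equal between libraries. CPM are not corrected for transcript length, so levels of different genes are not compared. The table also holds Anxa10 and Anxa13, which are not among the 9 and are described separately.

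Library totals ran from 17.2 to 39.9 M fragments. The 4 libraries at 60 days had 17.2 to 22.4 M, fewer than any other library, so depth and the 60-day group cannot be told apart. A floor of 3 fragments corresponds to 0.0752 to 0.175 CPM, and it covers counting error only. Every member lay above that floor in all 16 libraries. The 10 muscle fibre markers summed to 204541 to 228641 CPM in controls and to 54780 to 62740 CPM at 10 days. Muscle transcripts were thus present in the labelled tissue throughout. In bulk muscle, fewer cells of a type and less RNA per cell cannot be told apart. A call means an edgeR adjusted p under 0.05 in a fit of all 11658 genes tested. With library totals in place of TMM factors the median of all genes moved up by 0.66, 0.49 and 0.41 on the log2 scale at 10, 30 and 60 days. With upper-quartile factors it moved by 0.12 at 30 days and 0.14 at 60 days. Small differences from 0 days are therefore relative to the bulk of genes.

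The 9 annexins did not move as a block. At 10 days Anxa4, Anxa7 and Anxa8 were called higher than at 0 days and Anxa3 and Anxa6 lower, 5 of 9. Of all tested genes 62.7% were called, 33.3% higher and 29.4% lower. At 30 days Anxa1, Anxa2, Anxa5, Anxa7 and Anxa8 were called higher and Anxa3 and Anxa6 lower, 7 of 9 against 64.6% of all genes (33.7% higher, 30.9% lower). At 60 days Anxa1, Anxa2, Anxa5, Anxa7, Anxa8 and Anxa11 were called higher and Anxa6 lower, 7 of 9 against 59.0% (29.9% higher, 29.1% lower). The median log2 fold change of the 9 was 0.22, 0.74 and 0.82 at 10, 30 and 60 days, beside 0.06, 0.05 and 0.04 for all genes. These comparisons share the 4 control libraries. Scaled by library totals, 9, 7 and 8 members were called, of which 8, 7 and 8 were higher. Over all genes that scaling raised the share of calls that were higher from 53.1%, 52.2% and 50.7% to 87.4%, 84.1% and 82.7%. With upper-quartile factors the later 2 shares were 62.2% and 63.6%.

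Between injured groups, 7 members were called from 10 to 30 days (5 higher, 2 lower), where 47.3% of all genes were called (23.0% higher, 24.3% lower). From 30 to 60 days 3 were called, all higher (Anxa3, Anxa8 and Anxa11), against 22.6% of all genes (10.3% higher, 12.4% lower). Without replicate 1 at 60 days that count was 6, with Anxa1, Anxa2 and Anxa5 added. From 10 to 60 days 8 were called (6 higher, 2 lower), against 61.1% (29.1% higher, 31.9% lower). Anxa4 and Anxa7 were the members called lower at 30 and at 60 than at 10 days. Between injured groups library totals changed the share of calls that were higher from 48.6%, 45.3% and 47.7% to 27.6%, 26.3% and 27.95%, for 30 against 10, 60 against 30 and 60 against 10 days. Of the 9 members that scaling called 3 higher and 3 lower, 3 higher and 1 lower, and 5 higher and 2 lower, in that order. The groups did not overlap for 5 members at 10 days against 0 (59.0% of all genes), 7 at 30 days (60.2%) and 7 at 60 days (50.0%). Between injured groups that held for 7 members from 10 to 30 days (43.8%), 4 from 30 to 60 days (20.1%) and 8 from 10 to 60 days (51.2%). The summed level of the 9 members ran from 833 to 923 CPM in controls, 827 to 931 CPM at 10 days and 816 to 939 CPM at 30 days. It ran from 1046 to 1143 CPM in the last group, which lay above the first 3. These sums are TMM-scaled, so both the even level of the first 3 groups and the higher last group hold relative to the bulk of genes. The TMM factors ran from 0.750 to 0.775 in controls, 1.18 to 1.24 at 10 days and 0.969 to 1.07 at 60 days. With library totals neither held: the control sums lay below those of every injured library, and the sums of 60 and 10 days overlapped.

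**Figure D1:**
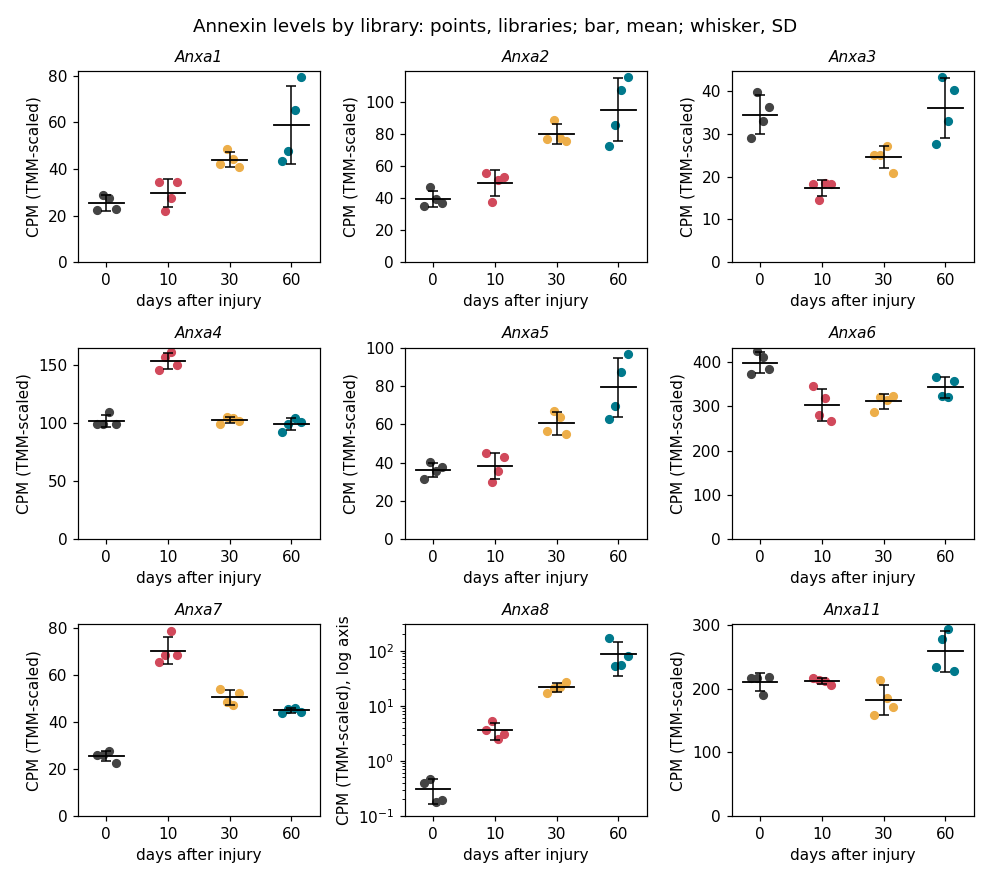
CPM (TMM-scaled) of each of the 9 annexins, 1 panel per gene, against days after injury; points are libraries (4 per group), bars are group means and whiskers are SD, and the axis of Anxa8 is logarithmic. Anxa8 steps up at each time, Anxa1, Anxa2 and Anxa5 lie above the controls at 30 and 60 days, Anxa4 stands high at 10 days alone, and Anxa3 is lowest at 10 days.

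Anxa8, first described as a vascular anticoagulant annexin, had the largest range of the family. It had 0.394, 0.477, 0.178 and 0.192 CPM in the 4 libraries at 0 days, from 4 to 13 fragments each. At 10 days it had 3.60, 5.39, 2.50 and 3.10 CPM. At 30 days it had 17.4, 21.0, 22.2 and 27.3 CPM, and at 60 days 166.9, 53.0, 55.8 and 78.7 CPM. Every library of a group thus lay above every library of the group before it. The log2 fold change against 0 days was 3.51 ± 0.57 (SE), 6.10 ± 0.50 and 8.11 ± 0.50 in order of time. The step from 10 to 30 days was 2.59 ± 0.35 and that from 30 to 60 days 2.02 ± 0.32. Library totals gave 4.16, 6.58 and 8.50 for the values against 0 days. The low counts at 0 days limit the precision of these folds, and at 60 days so does the spread of that group. Leaving out 1 library at a time gave 7.61 (without replicate 1 at 60 days) to 8.48 (without replicate 2 at 0 days) for 60 days.

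Groups each above the one before, with no overlap at any step, were seen in 9 of 11658 genes (0.0772%). Anxa8 was among them, and the other 8 were Clic1, Ip6k2, Panx1, Pkd2, Poc5, Smpx, Spint2 and Tceal8, named after their values were seen. Clic1, a chloride intracellular channel protein, averaged 15.2, 24.1, 36.3 and 51.1 CPM in order of time. Smpx, a small muscle protein of the costamere, averaged 176, 242, 302 and 401 CPM.

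The spread of Anxa8 was widest at 60 days, where replicate 1 was 3.15 times the lowest library. Without that library the 60-day log2 fold change against 0 days was 7.61, and that against 30 days was 1.51. The same library had the lowest Anxa1 (43.2 CPM), Anxa2 (72.3 CPM) and Anxa5 (63.0 CPM) of its group. Its muscle fibre markers summed to 143174 CPM, against 113381 to 127569 in the other 60-day libraries. Its endothelial markers summed to 298 CPM, against 392 to 457 in the others, and its macrophage markers to 115 CPM against 116 to 215. Their part in the Anxa8 level was not tested.

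Genes with the profile nearest to that of Anxa8 were sought by the root mean square (RMS) difference of log2 CPM over the 16 libraries, each gene centred on its own mean. Of 10132 other genes, Tp73, a transcription factor of the p53 family, came nearest with 1.18. Abcb1b, a multidrug efflux transporter, followed with 1.36. The next were Myh3, the embryonic myosin heavy chain (1.56), Gdf15, a secreted stress factor (1.59), and Cdkn1c, an inhibitor of cell division (1.61). These differences are larger than those of the nearest gene of any other member (0.0807 to 0.15), and Anxa8 also has the widest range to match. Tp73 averaged 0.179, 2.29, 5.13 and 9.83 CPM in order of time. At 60 days it had 18.5 CPM in replicate 1 and 5.08 to 9.20 in the others. All 5 genes were highest in replicate 1 within the 60-day group, as Anxa8 was. They were picked for likeness over these same libraries, so this shared peak follows in part from the choice.

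**Figure D2:**
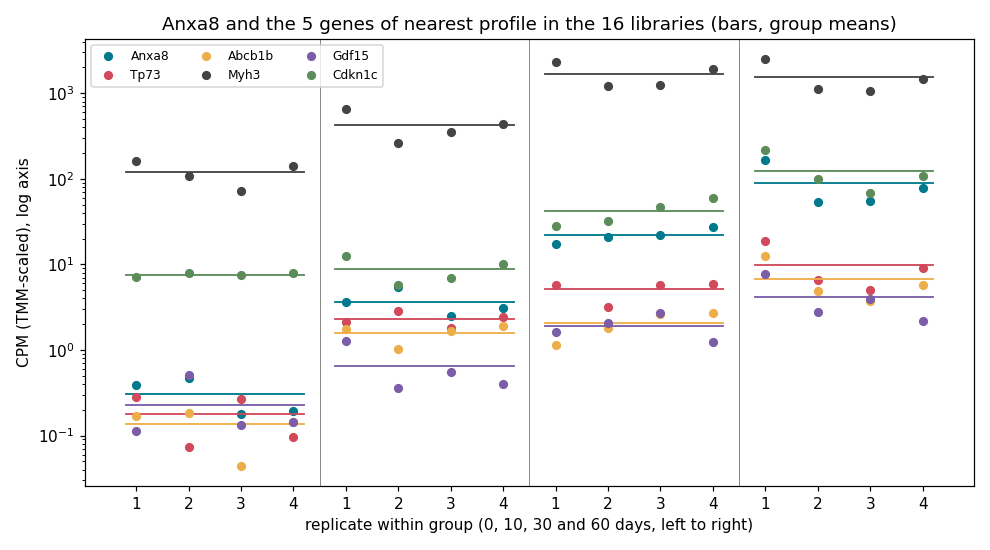
CPM (TMM-scaled, log axis) of Anxa8 and of the 5 genes with the nearest profile, in the 16 libraries ordered by day and replicate; bars are group means. Levels of different genes are not comparable, and at 60 days each of the 6 genes is highest in replicate 1 (Anxa8 166.9 CPM there). The 5 genes were picked for likeness over these same libraries.

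Anxa8 is known from epithelia and cartilage, so markers of these tissues were read beside it. Of 8 epithelial markers 7 were in the table and 1 (Cdh1) could be tested, and together they summed to 0.281 to 2.18 CPM over all 16 libraries. Krt5 and Krt15 were at 0 in all libraries of 10, 30 and 60 days. Cdh1, E-cadherin, was called lower at 10 and 30 days than at 0 days (log2 -1.71 and -1.28; edgeR adjusted p 0.00356 and 0.0182). It was called higher at 60 days than at 30 days (1.93, edgeR adjusted p 0.00438) and than at 10 days (2.37, adjusted p 0.000210). Anxa8 had the same direction between these injured groups, but the opposite one at 10 and 30 days against 0 days. In replicate 1 at 60 days, where Anxa8 was highest, the epithelial markers summed to 0.968 CPM, against 1.74 to 2.18 CPM in the others of that group. The 5 cartilage markers found summed to 1.38 to 2.97 CPM in controls, and then in order of time to 7.23 to 19.9, 9.85 to 20.2 and 7.29 to 10.6 CPM. Of the 4 tested, 2, 4 and 3 were called higher at 10, 30 and 60 days and 0 lower, where 33.3%, 33.7% and 29.9% of all genes were called higher. Acan was at 7.06 and 5.23 on the log2 scale at 10 and 30 days, from a mean of 0.0232 CPM at 0 days. Its 60-day value (2.25) was not called. Comp was called higher at all 3 times (2.87, 2.99 and 2.14). Matn1, a cartilage matrix protein, was at 0 in all libraries of 0, 10 and 30 days. The part of epithelial or cartilage cells in the Anxa8 level was not tested. Anxa8 has 3 fractional values among its 16, and what made them so is not stated in the sources used here.

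The promoter of Anxa8 is shown because this gene moved most, and those of Anxa1, Anxa2 and Anxa5 follow below because they moved together. Each is the 250 bases before the start that RefSeq gives on the assembly GRCr8, which is not the build of the counts (rn5). Of the 9 members 8 had an entry in this table. Capitals mark matches, on either strand, to TGACTCA (the AP-1 motif), CATTCC (the M-CAT motif of TEAD factors), GGGCGG (the GC box) and TATAAA (the TATA box). The Anxa8 window lies at chr16:9403137-9403386 (plus strand).
Anxa8: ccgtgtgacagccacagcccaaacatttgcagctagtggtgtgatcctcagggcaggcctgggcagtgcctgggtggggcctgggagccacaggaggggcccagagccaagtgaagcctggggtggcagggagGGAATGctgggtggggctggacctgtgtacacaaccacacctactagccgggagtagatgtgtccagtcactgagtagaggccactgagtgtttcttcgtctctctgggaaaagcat
It holds 1 M-CAT match, 117 bases before the start, and none of the other 3 motifs. An M-CAT match is found in 12.1% of 33469 such windows. Its GC content was 60.4% with 3 CpG, where the median window has 51.2% and 5.

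Anxa1, Anxa2 and Anxa5 had nearly the same course: close to control levels at 10 days and above them at 30 and 60 days. Anxa1 is an anti-inflammatory annexin that signals through formyl peptide receptors. Anxa2 forms a complex with S100a10 that binds plasminogen. Anxa5 is the annexin used to stain exposed phosphatidylserine.

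Anxa1 had 22.4, 28.7, 27.7 and 22.8 CPM at 0 days and 34.2, 21.9, 27.7 and 34.5 at 10 days. It had 42.1, 48.6, 44.3 and 41.0 CPM at 30 days and 43.2, 47.7, 65.5 and 79.3 at 60 days. The 0 and 10-day libraries overlapped, and all 8 later ones lay above both. Relative to 0 days the log2 fold change of Anxa1 was 0.22 ± 0.18 (SE), 0.79 ± 0.18 and 1.21 ± 0.18 in order of time.

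Anxa2 had 35.3, 46.9, 39.3 and 37.0 CPM at 0 days and 55.8, 37.4, 51.2 and 53.3 at 10 days. It had 77.2, 89.0, 77.6 and 75.7 CPM at 30 days and 72.3, 85.7, 107.6 and 115.5 at 60 days. The groups again separated only after 10 days, and 30 and 60 days overlapped. For Anxa2 the log2 fold changes came to 0.32 ± 0.15 (SE), 1.01 ± 0.15 and 1.26 ± 0.15. The 10-day value was not called, but it was with upper-quartile factors (0.38) and with 4 libraries left out in turn, namely replicate 2 at 0 days (0.41), replicate 2 at 10 days (0.43), and replicates 1 and 4 at 60 days (both 0.32). RefSeq lists 1 pseudogene of Anxa2 in GRCr8, and how its reads were counted is not known.

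Anxa5 had 31.5, 40.2, 35.5 and 37.8 CPM at 0 days and 44.9, 29.9, 35.8 and 42.7 at 10 days. It had 56.3, 67.2, 64.0 and 54.8 CPM at 30 days and 63.0, 69.8, 87.5 and 96.8 at 60 days. For Anxa5 the log2 fold changes came to 0.08 ± 0.14 (SE), 0.74 ± 0.14 and 1.13 ± 0.14. The groups of 0 and 10 days overlapped, as did those of 30 and 60 days.

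Under library totals the 10-day values of Anxa1, Anxa2 and Anxa5 were 0.88, 0.98 and 0.74, all called higher, so a 10-day level near the controls holds relative to the bulk of genes. From 30 to 60 days their values were 0.42, 0.25 and 0.39, and none was called. Without replicate 1 at 60 days they were 0.54, 0.37 and 0.48, all 3 called. That of Anxa5 was also called without replicate 2 at 10 days (0.39), with RLE factors and DESeq2 (both 0.41), and with the letter L or R of the sample title as a covariate (0.46).

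The likeness of these 3 genes was close. The RMS difference of their centred profiles was 0.10 between Anxa1 and Anxa5, 0.12 between Anxa1 and Anxa2 and 0.13 between Anxa2 and Anxa5. The next pair of the family, Anxa6 and Anxa11, differed by 0.26. Of 10132 other genes, the nearest to Anxa1 were S100a11 (0.0987), Anxa5 and Anxa2, in that order. The nearest to Anxa5 were S100a11 (0.0995), Anxa1 and Ptma (0.13), and those to Anxa2 were Anxa1, Tpst1 (0.12) and Anxa5. S100a11 is the S100 protein known to bind Anxa1. The first 2 of each of these lists kept their rank under library totals.

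S100a11 had 7.25, 9.98, 9.10 and 8.81 CPM at 0 days and 12.7, 6.57, 8.86 and 12.0 at 10 days. It had 13.4, 16.3, 16.9 and 14.8 CPM at 30 days and 15.2, 16.5, 21.7 and 25.2 at 60 days. As it was picked for its likeness in these libraries, its log2 fold changes of 0.19 ± 0.20 (SE), 0.80 ± 0.20 and 1.16 ± 0.20 are given without a test. At 10 days replicate 2 was the lowest library for S100a11, Anxa1, Anxa2 and Anxa5 alike. At 60 days replicates 1 and 4 were the lowest and the highest for all 4 genes. For S100a11 this order follows in part from how it was picked.

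**Figure D3:**
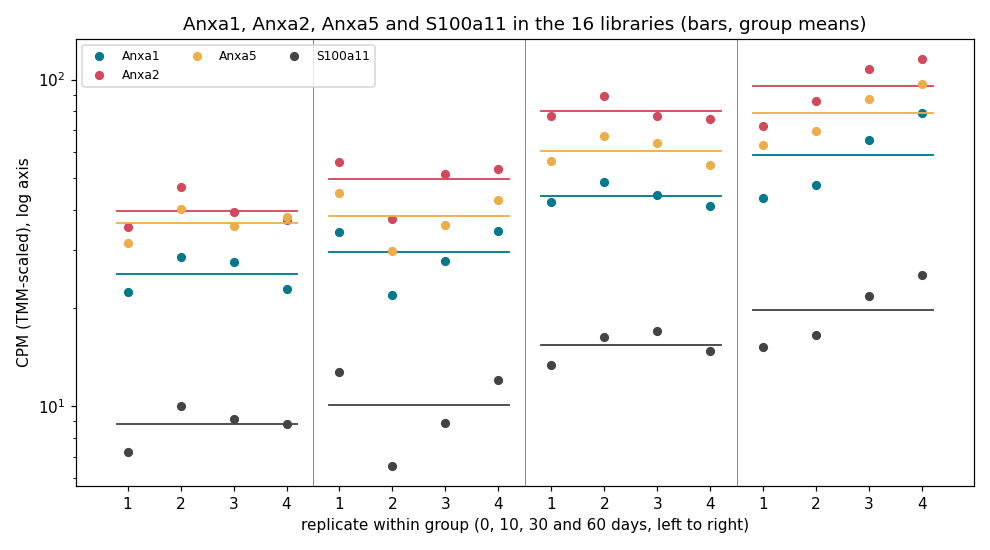
CPM (TMM-scaled, log axis) of Anxa1, Anxa2, Anxa5 and S100a11 in the 16 libraries ordered by day and replicate; bars are group means. Within each gene the libraries of 30 and 60 days lie above all those of 0 and 10 days, and replicate 2 is the lowest at 10 days. S100a11 was picked for its likeness in these same libraries.

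The promoters of the 3 genes are shown so that their differences can be seen beside their shared course. Their windows lie at chr1:227303733-227303982 (minus strand), chr8:78986002-78986251 (plus strand) and chr2:121272697-121272946 (minus strand), in GRCr8.
Anxa1: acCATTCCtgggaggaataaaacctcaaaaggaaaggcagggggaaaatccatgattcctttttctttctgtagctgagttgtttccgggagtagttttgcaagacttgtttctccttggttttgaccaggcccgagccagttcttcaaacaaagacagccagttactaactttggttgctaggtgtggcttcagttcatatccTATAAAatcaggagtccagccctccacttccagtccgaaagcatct
Anxa2: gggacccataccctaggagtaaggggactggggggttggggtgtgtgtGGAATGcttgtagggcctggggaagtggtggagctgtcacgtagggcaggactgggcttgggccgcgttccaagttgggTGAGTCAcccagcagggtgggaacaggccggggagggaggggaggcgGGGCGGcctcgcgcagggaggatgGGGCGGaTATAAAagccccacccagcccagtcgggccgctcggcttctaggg
Anxa5: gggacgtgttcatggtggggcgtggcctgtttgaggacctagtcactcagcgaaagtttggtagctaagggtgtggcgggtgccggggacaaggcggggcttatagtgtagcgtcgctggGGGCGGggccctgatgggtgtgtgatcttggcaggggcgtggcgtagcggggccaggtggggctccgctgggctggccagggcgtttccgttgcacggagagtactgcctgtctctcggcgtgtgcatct
None of the 4 motifs was in all 3 windows. Anxa1 held 1 M-CAT and 1 TATA match. Anxa2 held 1 match each of AP-1, M-CAT and TATA and 2 GC boxes. Anxa5 held 1 GC box. Of all windows 4.05% hold an AP-1 match, 12.9% a TATA match and 30.5% a GC box. GC content was 45.2%, 67.2% and 65.2%, with 3, 12 and 18 CpG.

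Anxa7 and Anxa4 were highest at 10 days. Anxa7, also called synexin, is a membrane-fusing annexin first found on secretory granules. It had 25.7, 26.1, 27.7 and 22.6 CPM at 0 days and 65.7, 68.4, 78.7 and 68.4 at 10 days. It had 54.2, 48.6, 47.2 and 52.3 CPM at 30 days and 43.9, 45.6, 46.1 and 44.4 at 60 days. All 4 groups were apart from one another: highest at 10 days, then 30, then 60, and lowest at 0 days. The log2 fold change against 0 days was 1.46 ± 0.08 (SE), 0.99 ± 0.08 and 0.82 ± 0.08. The difference between 60 and 10 days was -0.64 ± 0.07. That between 60 and 30 days was -0.17 and was not called, though it was with library totals (-0.26) and with the title letter as a covariate (-0.22). RefSeq lists 4 pseudogenes of Anxa7 in GRCr8, so part of its count may come from them or be lost to them. The nearest profiles were those of Gabbr1, a GABA receptor subunit (RMS difference 0.15), and Lmna, the gene of lamins A and C (0.15).

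Anxa4, an annexin of epithelial and secretory cells, had 99.4, 99.0, 109.2 and 99.3 CPM at 0 days and 145.9, 156.3, 161.3 and 150.1 at 10 days. It had 98.7, 104.8, 103.8 and 101.5 CPM at 30 days and 91.9, 98.7, 103.9 and 101.0 at 60 days. The 10-day libraries stood above the other 12, which overlapped. The log2 fold change was 0.59 ± 0.06 (SE), 0.01 ± 0.06 and -0.04 ± 0.06. Under library totals the later values were 0.50 and 0.37, both called higher, so a return to the control level holds relative to the bulk of genes. In each group the SD was 2.67% to 5.15% of the mean. Its nearest profiles were Dync1h1, the dynein heavy chain (RMS difference 0.0856), Ube4b, a ubiquitin ligase (0.0982), and Zfp259 (0.10).

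Anxa3 was lowest at 10 days. This annexin is known from neutrophil granules and from vessel walls. It had 29.0, 39.9, 33.0 and 36.3 CPM at 0 days and 18.2, 14.6, 18.5 and 18.3 at 10 days. It had 25.1, 25.0, 27.2 and 21.0 CPM at 30 days and 27.8, 43.3, 33.0 and 40.3 at 60 days. The 10 and 30-day libraries lay below all controls, and those of 60 days overlapped with the controls. The log2 fold change was -0.99 ± 0.14 (SE), -0.49 ± 0.13 and 0.06 ± 0.13. Under library totals the 10-day value was -0.33, the 30-day value turned to 0.002 and the 60-day value was 0.48, called higher.

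The genes nearest to Anxa3 were Podxl, a sialomucin of vessel lining (RMS difference 0.12), Acvrl1, a TGF-beta family receptor of endothelium (0.12), and Esam, an endothelial adhesion molecule (0.13). All 7 endothelial markers could be tested. At 10 days 7 of 7 were called lower (29.4% of all genes), with a median log2 fold change of -0.58. From 10 to 60 days 7 of 7 were called higher (29.1% of all genes), with a median of 0.80. That 10-day median turned to 0.08 under library totals, with 1 of 7 called lower. Their summed level was 334 to 389 CPM in controls, and then 188 to 279, 281 to 316 and 298 to 457 CPM in order of time. None was at 0 in a whole group. The 8 neutrophil markers, 3 of them tested, summed to 1.34 to 9.13 CPM over all libraries, with Elane at 0 in all libraries of 0, 10 and 30 days. The part of vessel or blood cells in the level of Anxa3 was not tested.

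Anxa6, an annexin with a duplicated core that is abundant in muscle, had 372, 425, 411 and 385 CPM at 0 days and 346, 280, 318 and 268 at 10 days. It had 286, 320.3, 313 and 324 CPM at 30 days and 366, 324, 322 and 358 at 60 days. All 12 injured libraries lay below the 4 controls. The log2 fold change was -0.39 ± 0.09 (SE), -0.36 ± 0.09 and -0.22 ± 0.09. The direction depended on the scaling: with library totals the values were 0.27, 0.14 and 0.19, the first called higher. The 60-day call was lost with upper-quartile factors (-0.08), with a minimum mean of 1 CPM (-0.17), and with the L or R of the title taken into the fit (-0.20). It was also lost in each fit without replicate 2, 3 or 4 of either group (-0.17 to -0.22). RefSeq lists 2 genes that overlap Anxa6 in GRCr8, and 1 each for Anxa4 and Anxa7, and the library kit does not mark strand, so reads of overlapping genes cannot be told apart for these 3 members. The nearest profiles were Npdc1 (RMS difference 0.0807), Map3k11, a kinase of the JNK pathway (0.0908), and Numb, an inhibitor of Notch signalling (0.0932).

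Anxa11, an annexin that links RNA granules to lysosomes, had 216.7, 217.6, 190.04 and 218.9 CPM at 0 days and 216.5, 213.5, 212.9 and 206.5 at 10 days. It had 158, 214, 186 and 172 CPM at 30 days and 234, 278, 295 and 229 at 60 days. Only the 60-day libraries lay apart, above the other 12. The log2 fold change was 0.01 ± 0.10 (SE), -0.21 ± 0.10 and 0.30 ± 0.10. With library totals these were 0.67, 0.28 and 0.70, all called higher. The 30-day value was called lower with RLE factors and with DESeq2 (both -0.24) and without replicate 2 at 30 days (-0.30). The 60-day call was lost without replicate 3 at 60 days (0.23), and that from 10 to 60 days (0.28 ± 0.10) without replicate 2 (0.25) or 3 (0.22) at 60 days. Under library totals the value from 10 to 60 days was 0.03 and was not called. The nearest profiles were Prdx1, a peroxiredoxin (RMS difference 0.14), Ptbp2 (0.15) and Dhx32 (0.15).

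**Figure D4:**
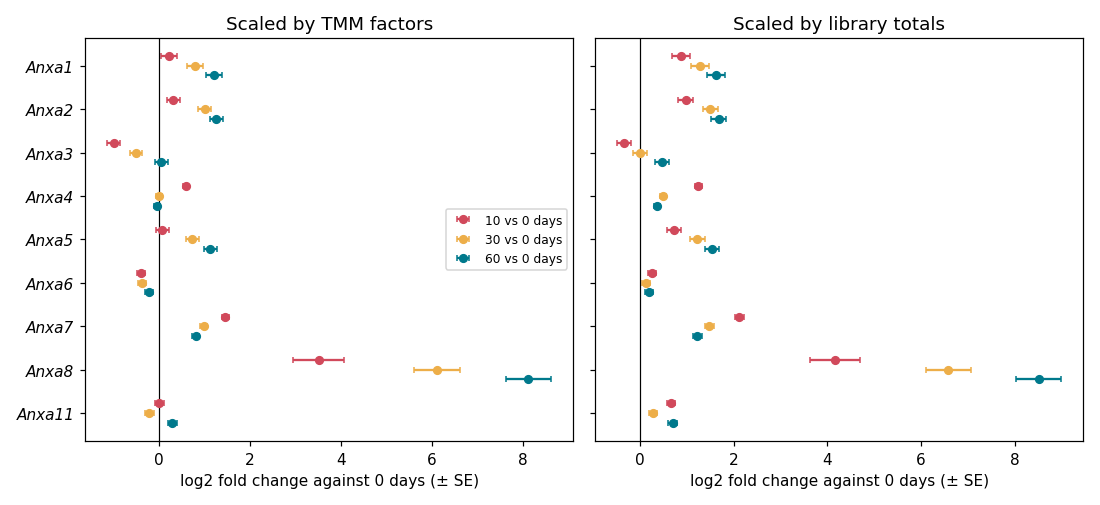
Log2 fold change against 0 days (± SE) of each annexin at 10, 30 and 60 days, scaled by TMM factors (left) and by library totals (right); the vertical line marks no change. Anxa8 lies far to the right under both scalings (8.11 and 8.50 at 60 days), whereas Anxa6 lies left of the line under TMM factors and right of it under library totals.

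Of the annexins outside the 9, Anxa10, an atypical annexin known from stomach, was lower in injured muscle. It had 6.97, 8.62, 8.03 and 6.32 CPM at 0 days and 0.928, 0.296, 0.461 and 1.17 at 10 days. It had 2.37, 3.56, 3.56 and 2.89 CPM at 30 days and 2.86, 4.32, 3.86 and 5.38 at 60 days. Its log2 fold change was -3.37 ± 0.30 (SE; edgeR adjusted p 6.88e-08), -1.27 ± 0.27 (adjusted p 0.000532) and -0.87 ± 0.27 (adjusted p 0.0102). With library totals these were -2.71, -0.78 and -0.45, and the last was not called. Anxa13 had 1 to 22 fragments per library, at 0.0444 to 0.638 CPM, and its lowest libraries were under the floor.

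Partners of annexins formed a list of 17 genes, 15 of them in the table and 14 tested. At 10 days 3 were called higher and 1 lower, at 30 days 9 and 1, and at 60 days 8 and 0. Of all genes 62.7%, 64.6% and 59.0% were called at these times, 29.1% to 33.7% in each direction. The median log2 fold changes were 0.17, 0.56 and 0.84, beside 0.06, 0.05 and 0.04 for all genes. With library totals 10, 12 and 12 were called higher and none lower. S100a10, the partner of Anxa2, had a mean of 31.6 ± 6.45 CPM (SD, n = 4) in control muscle and 35.1 ± 7.91 CPM at 10 days. It averaged 63.8 ± 8.86 at 30 days and 113.8 ± 19.7 at 60 days. S100a10 rose at 30 days by a log2 of 1.01 ± 0.18 (edgeR adjusted p 0.000134) and 60 days (1.84 ± 0.18, adjusted p 5.98e-07) and was not called at 10 days (0.15 ± 0.18, adjusted p 0.476). Its 10-day value was 0.81 under library totals and was then called higher.

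S100a6 took the same order, at -0.32, 0.61 and 1.18, called at 30 and 60 days. Its 10-day value, which was not called, turned to 0.34 under library totals. S100a4 rose at all 3 times (1.98, 3.60 and 2.58; edgeR adjusted p 1.40e-05, 5.22e-08 and 1.96e-06). Pdcd6, a calcium-binding partner of Anxa7 and Anxa11, rose at 10 and 30 days (0.55 and 0.45; edgeR adjusted p 7.08e-06 and 6.72e-05). Sri, sorcin, another partner of Anxa7, rose at 30 and 60 days (both 0.71; edgeR adjusted p 0.000580 and 0.000785). Among genes of plasmin formation Plau, urokinase, was called higher at 30 and 60 days (0.76 and 0.97), and Plat, tissue plasminogen activator, lower at 10 and 30 days (-0.86 and -0.45). The 30-day value of Plat turned to 0.05 under library totals. Fpr1, a receptor for Anxa1, was at 0 in all libraries of 0, 30 and 60 days.

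Membrane repair genes other than annexins formed a list of 16, with 14 in the table and all 14 tested. At 10 days 6 were called higher and 8 lower, at 30 days 3 and 8, and at 60 days 3 and 5. Of all genes 62.7%, 64.6% and 59.0% were called at these times, 29.1% to 33.7% in each direction. The median log2 fold changes of the list were -0.50, -0.24 and -0.15, beside 0.06, 0.05 and 0.04 for all genes. With library totals the medians of the list turned to 0.15, 0.25 and 0.26, with 7, 8 and 7 genes higher and 5, 2 and 1 lower. Dysf, dysferlin, had a mean of 225 ± 18.6 CPM (SD, n = 4) in control muscle. It had 521 ± 64.4 CPM at 10 days, then 321 ± 45.8 CPM and, in the last group, 212 ± 13.7 CPM. Dysf rose at 10 days by a log2 of 1.21 ± 0.11 (edgeR adjusted p 6.22e-08) and 30 days (0.51 ± 0.11, adjusted p 0.000534) and was not called at 60 days (-0.08 ± 0.11, adjusted p 0.510). Its 60-day value turned to 0.32 under library totals and was then called higher.

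Myof, myoferlin, rose at all 3 times (0.95, 1.23 and 1.30; edgeR adjusted p 0.00222, 0.000280 and 0.000235). Trim72, the ubiquitin ligase MG53 that gathers vesicles at a wound, fell at 10 days (-1.97 ± 0.17, edgeR adjusted p 6.18e-08) and 30 days (-0.54 ± 0.17, adjusted p 0.00944). Cav3, the muscle caveolin, fell at the same times (-2.64 and -1.08; edgeR adjusted p 3.20e-08 and 0.000202). Capn3, a muscle calpain, was called lower at all 3 times (-1.61, -0.52 and -0.32). Under library totals the 30-day values of Trim72 and Capn3 were -0.05 and -0.03, and the 60-day value of Capn3 turned to 0.09. Dysf, Anxa7 and Anxa4 were thus highest at 10 days, when Trim72 and Cav3 were lowest.

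Genes of phosphatidylserine exposure and clearance, the lipid that annexins bind, formed a list of 13, with 11 in the table and 10 tested. At 10 days 2 were called higher and 2 lower, at 30 days 4 and 2, and at 60 days 6 and 1. Of all genes 62.7%, 64.6% and 59.0% were called at these times, 29.1% to 33.7% in each direction. The medians of the list were -0.04, 0.39 and 0.63, beside 0.06, 0.05 and 0.04 for all genes. The first median of the list turned to 0.62 with library totals. Gas6, the ligand of the receptors Axl and Tyro3, was called lower at 10 days (-0.46), a value that library totals turned to 0.19. It was called higher in the last group (0.94). Axl was called higher at 60 days (0.96). Lrp1, a clearance receptor, was called higher at all 3 times (1.08, 1.22 and 1.21). Ano6, also of this list, was called lower at all 3 times (-0.63, -0.997 and -0.46). Under library totals its values were 0.03, -0.51 and -0.06, and only the 30-day value was called. Tyro3 averaged 0.807 CPM at 0 days and then 2.69, 1.53 and 1.31 CPM in order of time.

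Other cell types also moved with time. Macrophage markers, 9 of 10 in the table and all 9 tested, summed to 34.2 to 50.4 CPM at 0 days. They summed to 107.7 to 143 CPM at 10 days, 134 to 175 at 30 days and 115 to 215 at 60 days. Fibroblast and tenocyte markers, 10 of 11 in the table, summed to 383 to 644 CPM at 0 days and to 761 to 1856, 1139 to 1588 and 912 to 1960 CPM afterwards. Col1a2 was listed at 0 in every library. Both sums were above the controls at 10 days, when most of these markers were already called higher. They were 7 of 9 macrophage markers and 7 of the 8 fibroblast and tenocyte markers tested, against 33.3% of all genes. Under library totals all 9 and all 8 were called higher. Those not called at 10 days with TMM factors were Dcn, Cd14 and Cd163. Dcn, the gene of decorin, was at 0.09, 1.00 and 1.48 on the log2 scale in order of time, called at 30 and 60 days. Cd14 (0.36, 0.85 and 0.93) and Cd163 (0.39 at 10 and 1.59 at 60 days), receptors of macrophages, were called at the same 2 times. Those are the times of Anxa1, Anxa2 and Anxa5, whereas the other tested markers of both lists were already called higher at 10 days. Of these, Scx was called higher at 10 and 30 days (1.40 and 0.36) but lower at 60 days (-1.69). At 10 days replicate 2 had the lowest fibroblast sum (761 CPM), as it had of Anxa1, Anxa2 and Anxa5. At 60 days replicate 4 had the highest fibroblast and macrophage sums (1960 and 215 CPM), as it had of these genes. Unlike them, the fibroblast sum at 60 days was lowest in replicate 2 (912 CPM). The macrophage sum at 10 days was lowest in replicate 4 (107.7 CPM). Replicate 2 at 10 days also had the lowest endothelial, Schwann cell and mural cell sums (188, 41.4 and 131 CPM). Replicate 4 at 60 days also had the highest endothelial and mural cell sums (457 and 469 CPM). Schwann cell markers, all 7 tested, summed to 75.2 to 118 CPM in controls, and then to 41.4 to 69.9, 83.9 to 127 and 149 to 305 CPM. The 6 mural cell markers summed to 333 to 440.4 CPM at 0 days, then to 131 to 197, 214 to 263 and 248 to 469 CPM. The 6 adipocyte markers summed to 90.7 to 199 CPM at 60 days and to 19.3 to 77.2 CPM in the other 3 groups. The part of these cells in the annexin levels was not tested.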

How the data were processed

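Messenger RNA of rat supraspinatus was isolated with a miRNeasy kit and made into TruSeq mRNA libraries, per the labels. The authors deposited 1 table of expected counts (raw fragments per gene, 233 of 17147 genes with a fractional value). The submitters' processing notes name TopHat2 2.0.9, Bowtie2 2.1.0.0, Cufflinks, Cuffdiff 2.1.1 and the build rn5, with no role or order. The annotation and filters are not given in the sources used here. Counts were rounded, filtered with filterByExpr (11658 genes kept), scaled with TMM factors and fitted in 1 edgeR quasi-likelihood model of all 16 libraries, with robust estimation, no covariate and Benjamini-Hochberg adjustment over all genes tested. The SE is the log2 fold change divided by the square root of F. Members, gene lists and the rule for named genes (all annexins and partner lists, and the 3 nearest profiles per member, 5 for Anxa8; 1 of these genes is not reported here) were chosen with earlier results of these data known; the search of profiles needed a mean of at least 1 CPM and used a prior count of 2. The list genes counted as called come from the same fit, with no set test. Library totals ran from 17.2 to 39.9 M fragments. Each choice was then varied alone: the factors (RLE, upper-quartile, library totals), the tool (DESeq2, limma-voom), the filter, robust estimation, the groups fitted, the adjusted p (under 0.01), a replicate block, a term for the L or R in the title, and the set of libraries, with each left out once. In a simulated 60 against 0 days comparison of 11523 genes, 200 genes were changed 2-fold, and calls fell on 152 of these and on 11 others. Fits ran in edgeR 4.0.16 with limma 3.58.1 under R 4.3.3, the DESeq2 alternative in version 1.42.0. Sequences and figures were made in python 3.11.15 (matplotlib 3.10.9).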

Additional observations from a re-analysis of the deposited data

Results flagged for a closer look

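In 44 sets of 4 libraries (11 annexin genes at 4 times), 1 library stood far from the other 3 by Dixon's test in 4 sets. Chance flags about 1 in 20 such sets. Anxa11 at 0 days was 190.04 CPM in replicate 3, against 217 to 219 CPM in the others. Anxa4 at 0 days was 109.2 CPM in replicate 3, against 99.0 to 99.4 CPM. Anxa3 at 10 days was 14.6 CPM in replicate 2, against 18.2 to 18.5 CPM. Anxa2 at 30 days was 89.0 CPM in replicate 2, against 75.7 to 77.6 CPM. Anxa8 at 60 days, for which replicate 1 was 166.9 CPM, did not reach the critical value of that test.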

How the results depend on the processing

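With library totals 4 called values of members changed sign: Anxa3 at 30 days (0.0018) and Anxa6 at 10, 30 and 60 days (0.27, 0.14 and 0.19). With library totals 9 members were called at 10 days. Between 60 and 30 days the count of members called was 5 with the title letter as a covariate. Leaving out 1 library at a time gave 3 to 6 there, 5 to 6 at 10 days against 0, 7 to 8 at 30 against 0, 5 to 7 at 60 against 0, 7 to 8 at 30 against 10 and 7 to 9 at 60 against 10 days. Over all genes, 2636 were called between 60 and 30 days, 1530 when those groups were fitted alone and 1244 at an adjusted p under 0.01. Of the partner, membrane repair and phosphatidylserine genes 16 were called there; the count was 10 with library totals and with those groups alone, 7 at an adjusted p under 0.01, and 10 to 16 when leaving out 1 library at a time (10 without replicate 4 at 30 days). Over 24 pairs of same-numbered libraries the mean correlation of deviations was 0.0013 (-0.24 to 0.22), with 4 over 0.1. No pairing by number was seen, but the check cannot exclude it, as the value that true pairs would give is not known. The replicate block moved no count of calls by over 1.5 times, and of the members' calls it ended that of Anxa6 at 60 days (-0.22). Library totals put Cdkn1c (1.57) before Gdf15 (1.60) by nearness to Anxa8; this alternative was chosen after seeing the data. Depth was lowest at 60 days, and at 0 days Anxa8 rests on 4 to 13 fragments.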
